A study of Mus musculus with 9 samples.

Results

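The genes for mRNA decapping and 5′-to-3′ exonuclease decay were followed across 9 arrays of C2C12 mouse myoblast cells, 3 from before and 6 from after transcription was stopped. The set comprised 10 genes, chosen by symbol: the decapping enzyme Dcp2, its cofactors Dcp1a and Dcp1b, the enhancers of decapping Edc3 and Edc4, the helicase Ddx6, the decapping activators Lsm1 and Patl1, and the exonucleases Xrn1 and Xrn2. Each was measured by 1 probe set, out of 19938 genes with a symbol on the array. Of the 10 genes, 9 were bright enough to be tested, among 9864 genes in all, and Dcp1b was too dim.

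An mRNA in the cytoplasm is usually deadenylated first and then loses its 5′ cap to Dcp2, which works with Dcp1 proteins on a scaffold formed by Edc4. Edc3, Ddx6, Patl1 and the Lsm1-7 ring recruit or stimulate the enzyme, and Xrn1 then degrades the uncapped body from its 5′ end. Xrn2 is the nuclear counterpart and acts on transcripts downstream of the polyadenylation site. Cugbp1 (current symbol Celf1) and Mbnl1 are RNA-binding proteins, and the former is known to recruit deadenylation to mRNAs with GU-rich elements.

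Cells received a control siRNA, a Cugbp1 siRNA or an Mbnl1 siRNA, and total RNA was taken 0, 2.5 and 5 h after adding actinomycin D, a blocker of RNA polymerase, at 5 ug/ml. Each combination of siRNA and time had 1 array, so there were 3 arrays per siRNA and 3 per time, with no replicates. Whether the cultures were independent is not stated, and the labels do not say which siRNA sequences were used. The question of the design is whether loss of either protein alters mRNA decay. Tests with limma set each difference against the residual of an additive siRNA and time model, so their p-values measure that spread and may miss the variation between cultures. A gene was called where the p-value, adjusted by Benjamini-Hochberg over the 9864 genes, was under 0.05. Values are log2 RMA intensities, a scale that places arrays on a common distribution, so that changes are relative to other transcripts. Levels of different genes are not compared with each other, because each is read by its own probes. Both siRNA contrasts use the same 3 control arrays.

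Celf1 was at 21.6% to 30.9% of control in the arrays with Cugbp1 siRNA, and Mbnl1 at 15.9% to 22% in those with Mbnl1 siRNA. Celf1 was also lower with Mbnl1 siRNA, at 61.5% to 72.4% of control. All 6 myoblast markers examined passed the filter, whereas 0 of 5 leukocyte, 0 of 4 endothelial and 0 of 4 adipocyte markers did. Of 4 epithelial markers, Cdh1, Krt14 and Cldn4 passed and Epcam did not, and Cldn4 passed through its Mbnl1 arrays (log2 7.73 to 8.43, against 7.17 to 7.42 in the other arrays). The summed intensity of the 4 was 653 to 715 with control siRNA, 591 to 679 with Cugbp1 siRNA and 1006 to 1062 with Mbnl1 siRNA. Cdh1 (8.66 to 8.81 against 7.43 to 7.55 with control siRNA) and Cldn4 carried this difference, whereas Krt14 (8.04 to 8.20 against 8.15 to 8.26) and the dim Epcam (5.64 to 6.09 against 5.55 to 6.01) overlapped with control.

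**Figure D1:**
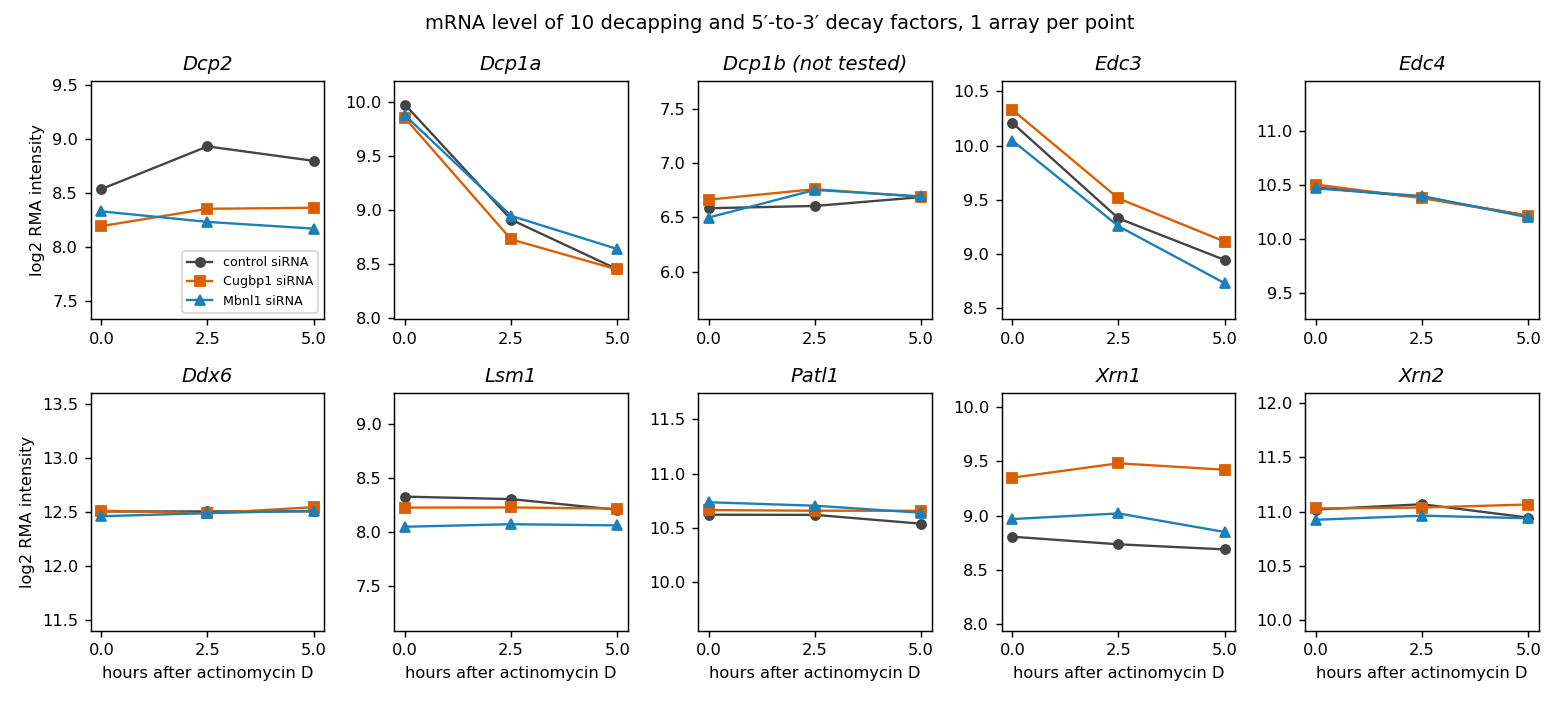
Log2 RMA intensity of each of the 10 genes (y axis, the same span in every panel) against hours after actinomycin D (x axis), with 1 array per point and 1 line per siRNA. Dcp1a and Edc3 decline in all 3 lines, Xrn1 with Cugbp1 siRNA lies above the other lines and Dcp2 with either siRNA lies below control.

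Dcp1a and Edc3 were the genes of the set whose mRNAs declined steeply after transcription was stopped, and Edc4 declined slightly. At 5 h Dcp1a was 2.61-fold and Edc3 2.41-fold lower than at 0 h. Dcp2, Ddx6, Lsm1, Patl1, Xrn1 and Xrn2 were not called on the deposited scale, with estimates between −0.06 and 0.09. So 3 of 9 tested genes fell and 0 rose, while over all tested genes 32.8% fell and 35.6% rose (68.4% in either direction). The median change of the 9 was −0.05 against 0.04 for all genes.

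Dcp1a, the cofactor that activates Dcp2, had log2 intensities of 9.97, 8.91 and 8.45 at 0, 2.5 and 5 h with control siRNA. With Cugbp1 siRNA they were 9.85, 8.73 and 8.45, and with Mbnl1 siRNA 9.88, 8.95 and 8.64. The 3 arrays at 0 h were thus the highest, those at 5 h the lowest, and the times did not overlap. The remaining share of the starting level at 5 h was 34.8%, 37.9% and 42.5% in the control, Cugbp1 and Mbnl1 siRNA arms. The change at 5 h was −1.39 ± 0.06 (SE, n = 3 arrays per time, limma adjusted p = 6.05e-07), which was rank 226 of 9864 from the lowest. Most of it lay in the first interval, with −1.04 ± 0.06 by 2.5 h (adjusted p = 6.28e-06) and −0.35 ± 0.06 from 2.5 to 5 h (adjusted p = 0.00487).

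Edc3, which binds Dcp2 and Ddx6 and stimulates cap removal, followed a similar course. With control siRNA its log2 intensity was 10.21, 9.33 and 8.94 at the 3 times. The corresponding values were 10.33, 9.51 and 9.11 with Cugbp1 siRNA and 10.05, 9.25 and 8.73 with Mbnl1 siRNA. Again no array of a later time reached one of an earlier time. At 5 h 41.6%, 43.0% and 40.1% of the starting level remained with control, Cugbp1 and Mbnl1 siRNA, a spread of a few percentage points between arms. The change was −1.27 ± 0.04 at 5 h (limma adjusted p = 2.44e-07), of which −0.83 ± 0.04 had occurred by 2.5 h (adjusted p = 3.75e-06) and −0.44 ± 0.04 came later (adjusted p = 0.000486).

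Edc4, the scaffold on which Dcp1 and Dcp2 assemble, fell far less. Its log2 intensity went from 10.48, 10.50 and 10.47 at 0 h to 10.22, 10.22 and 10.20 at 5 h (control, Cugbp1 and Mbnl1 siRNA). The arms were almost superimposed at every time, and 82.0% to 83.4% of the starting level remained at 5 h. The change was −0.27 ± 0.03 (limma adjusted p = 0.000203). At 2.5 h it was −0.10 ± 0.03 (adjusted p = 0.0462), and without any single one of the 9 arrays this early change was −0.08 to −0.11 and not called (adjusted p from 0.0542 to 0.173). The change from 2.5 to 5 h was −0.18 ± 0.03 (adjusted p = 0.0086) and, without the Mbnl1 array at 2.5 h, −0.16 (adjusted p = 0.0525).

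In both intervals Dcp1a, Edc3 and Edc4 were the 3 of 9 genes that passed the test, and each was lower. Over all genes 24.2% fell and 23.1% rose by 2.5 h (47.4% in either direction), and 17% fell and 4.47% rose from 2.5 to 5 h (21.4% in either direction).

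The other 6 tested genes showed small changes over 5 h. Ddx6, a DEAD-box helicase that represses translation and promotes decapping, varied by 0.08 in log2 over all 9 arrays (12.46 to 12.54), with a change of 0.03 ± 0.03 at 5 h (limma adjusted p = 0.481). The range over all arrays was 0.14 for Xrn2, 0.20 for Patl1 and 0.28 for Lsm1, the last 2 of which bind oligoadenylated mRNA ends. Their 5 h changes were −0.01 ± 0.04, −0.06 ± 0.04 and −0.04 ± 0.04. For Xrn1 the change was −0.05 ± 0.05 and for Dcp2 0.09 ± 0.09. Without the Mbnl1 array at 0 h, Dcp2 was called higher at 2.5 h (0.28, adjusted p = 0.00907) and at 5 h (0.22, adjusted p = 0.0139).

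These flat courses depend on the scale. After arrays were shifted to equal medians of 52 cytosolic ribosomal protein genes, the median of all genes at 5 h moved by −0.23. Then 8 of the 9 genes were called lower at 5 h, all but Dcp2, with Ddx6 turned to −0.21 (adjusted p = 0.00384), Xrn1 at −0.29, Xrn2 at −0.24, Lsm1 at −0.27 and Patl1 at −0.30. Over all genes the calls went from 3514 higher and 3232 lower to 281 higher and 5855 lower. At 2.5 h they went from 2283 and 2391 to 238 and 3240, and from 2.5 to 5 h from 441 and 1672 to 9 and 3936. Dcp1a and Edc3 were called lower on either scale in every interval.

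**Figure D2:**
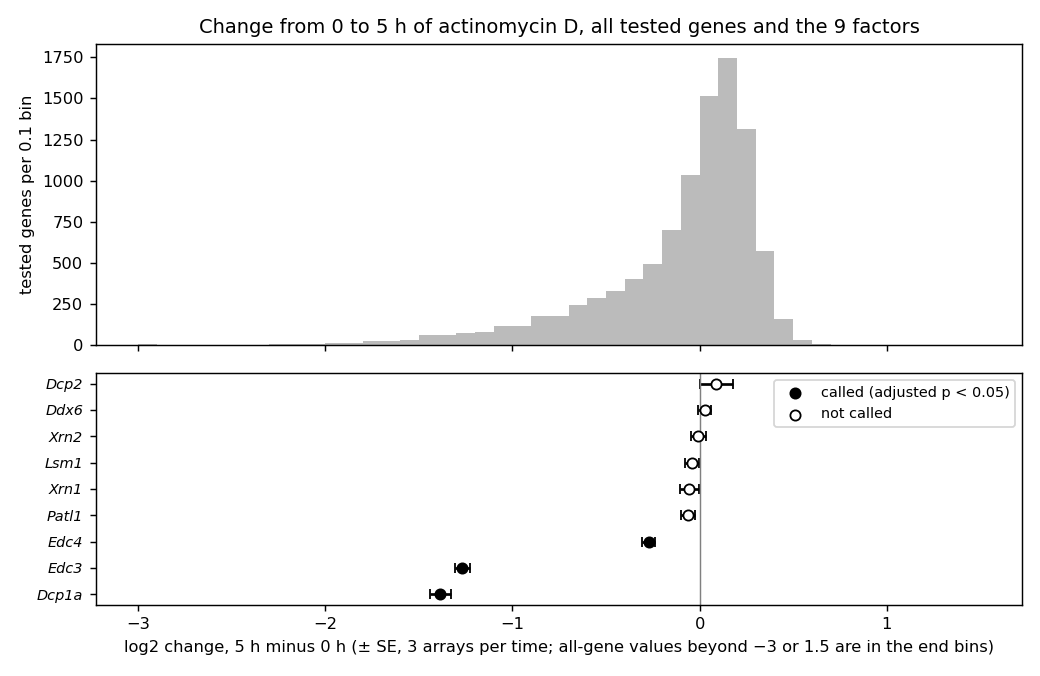
Top, number of tested genes (y axis) by log2 change from 0 to 5 h (x axis); bottom, the change of the 9 tested genes with its SE (3 arrays per time), filled where called. Dcp1a (−1.39) and Edc3 (−1.27) lie in the lower tail and Edc4 (−0.27) nearer the centre, while the other 6 lie between −0.06 and 0.09 on the deposited scale, of which all but Dcp2 were called lower with equal ribosomal protein medians.

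The promoters of Dcp1a and Edc3, the steeply declining genes, are shown as a description, with that of Xrn1, whose level differed most between siRNAs. The declines were measured with transcription stopped, and a link between promoter motifs and any change was not tested. RefSeq promoter entries (build GRCm38.p6) matched 7 of the 10 genes. Each sequence is the 250 bases before the annotated start, 5′ to 3′ on the plus strand, and capitals mark GGGCGG (Sp1 box) or CCGGAA (ETS box) on either strand.
Dcp1a, chr14:30479315-30479564: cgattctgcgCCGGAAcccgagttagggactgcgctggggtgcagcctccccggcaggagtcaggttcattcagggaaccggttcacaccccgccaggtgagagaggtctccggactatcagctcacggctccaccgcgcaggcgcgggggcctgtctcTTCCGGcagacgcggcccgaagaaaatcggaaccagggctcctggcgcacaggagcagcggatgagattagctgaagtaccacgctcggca
Edc3, chr9:57708319-57708568: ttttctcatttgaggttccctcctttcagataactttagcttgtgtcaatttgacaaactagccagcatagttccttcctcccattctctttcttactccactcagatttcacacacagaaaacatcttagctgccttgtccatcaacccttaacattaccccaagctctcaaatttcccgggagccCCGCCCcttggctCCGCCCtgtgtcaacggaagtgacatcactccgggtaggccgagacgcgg
Xrn1, chr9:95954510-95954759: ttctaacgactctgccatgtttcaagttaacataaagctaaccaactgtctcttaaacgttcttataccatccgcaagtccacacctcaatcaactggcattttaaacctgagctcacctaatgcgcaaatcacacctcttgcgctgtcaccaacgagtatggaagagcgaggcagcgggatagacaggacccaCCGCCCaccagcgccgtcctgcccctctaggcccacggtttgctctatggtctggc
Dcp1a had 2 ETS boxes, 240 and 91 bases before the start, and 0 Sp1 boxes. Edc3 had 2 Sp1 boxes, 63 and 50 bases before the start, and 0 ETS boxes. Xrn1 had 1 Sp1 box, 56 bases before the start. Of 32851 promoter entries of this length, 32.74% held an Sp1 box and 12.03% an ETS box. Dcp1a and Edc3 shared neither motif in this window, and their GC contents were 65.2% and 49.2%.

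With Cugbp1 siRNA Xrn1, the exonuclease of the pathway, rose and Dcp2, its decapping enzyme, fell. Xrn1 was 1.60-fold higher than with control siRNA and Dcp2 was 1.37-fold lower. Edc3 was 1.12-fold higher. In all, 2 of 9 tested genes rose and 1 fell, against 10.5% and 8.67% of all tested genes (19.2% in either direction). The median difference of the 9 was 0.01, as it was for all genes. With equal ribosomal protein medians 1 of the 9 rose and 1 fell, and over all genes the calls went from 1039 higher and 855 lower to 522 and 712.

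Xrn1, the cytoplasmic exonuclease that removes decapped mRNA, had log2 intensities of 8.80, 8.73 and 8.69 at 0, 2.5 and 5 h with control siRNA. With Cugbp1 siRNA they were 9.35, 9.48 and 9.42. The lowest Cugbp1 array was above the highest control array, so the groups did not overlap, and the gap was present before actinomycin D. The difference was 0.68 ± 0.05 (SE over 3 arrays of each siRNA, adjusted p = 0.000208 by limma), at rank 28 of 9864 from the highest. It was called in all 14 alternative analyses that measured it, at 0.64 to 0.73.

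With Mbnl1 siRNA the log2 intensity of Xrn1 was 8.97, 9.02 and 8.85, above every control array and below every Cugbp1 array. The rise over control was 0.20 ± 0.05 (limma adjusted p = 0.0101). It was not called without the control array at 2.5 h (0.16, adjusted p = 0.0589) or the Mbnl1 array at 2.5 h (0.18, adjusted p = 0.0512). The Mbnl1 arrays were lower than the Cugbp1 arrays by −0.47 ± 0.05 (adjusted p = 0.000143).

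Dcp2 had log2 intensities of 8.54, 8.93 and 8.80 at the 3 times with control siRNA. They were 8.19, 8.35 and 8.36 with Cugbp1 siRNA and 8.33, 8.23 and 8.17 with Mbnl1 siRNA. Every array of either knockdown was below every control array, and the knockdowns overlapped each other. The fall was −0.45 ± 0.09 with Cugbp1 siRNA (limma adjusted p = 0.0111) and −0.51 ± 0.09 with Mbnl1 siRNA (adjusted p = 0.00153). The former call was lost without the control array at 2.5 h (−0.37, adjusted p = 0.0623), the control array at 5 h (−0.43, adjusted p = 0.0515) or the Cugbp1 array at 2.5 h (−0.43, adjusted p = 0.063), whereas the latter held in all 14 alternatives that measured it (−0.43 to −0.63).

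Both knockdowns therefore had less Celf1 and less Dcp2 mRNA, and whether these are related was not tested. Between Mbnl1 and Cugbp1 siRNA Dcp2 differed by −0.06 ± 0.09 (95% interval −0.26 to 0.14, adjusted p = 0.584). Without the Mbnl1 array at 0 h this was −0.18 (adjusted p = 0.0309).

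**Figure D3:**
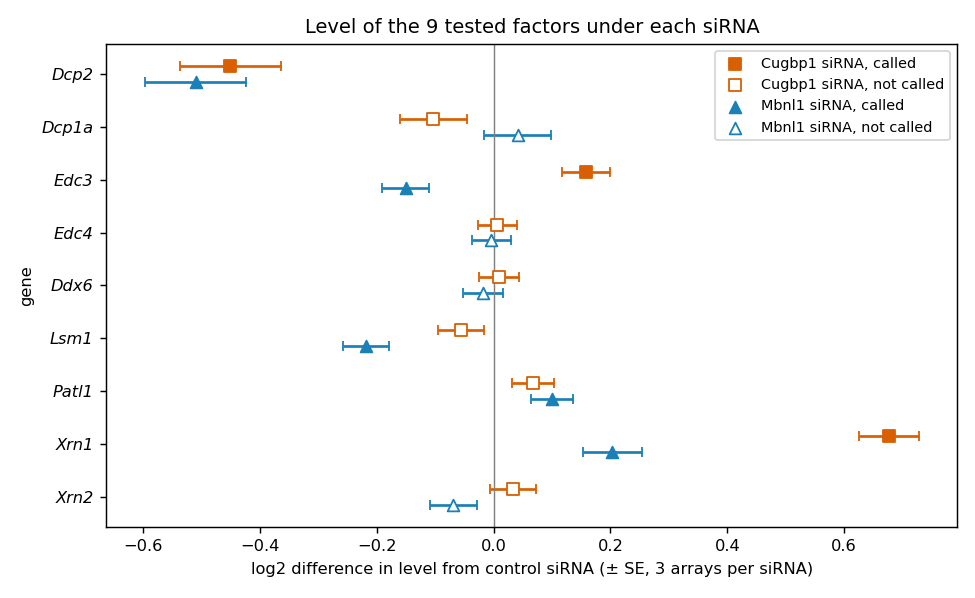
Log2 difference in level from control siRNA (x axis, with SE, 3 arrays per siRNA) for the 9 tested genes (y axis), squares for Cugbp1 and triangles for Mbnl1 siRNA, filled where called. Xrn1 lies highest with Cugbp1 siRNA (0.68), Dcp2 lowest with both siRNAs (−0.45 and −0.51), and Edc3 lies on opposite sides of 0 (0.16 and −0.15).

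With Mbnl1 siRNA Dcp2, Lsm1 and Edc3 were lower than control and Xrn1 and Patl1 slightly higher. That is 3 of 9 tested genes lower and 2 higher, beside 31% and 24% of all tested genes (55% in either direction), so the share called was near the background. Dcp1a, Edc4, Ddx6 and Xrn2 were not called, with differences between −0.07 and 0.04. The 6 myoblast markers summed to an intensity of 18289 to 18669 in these arrays against 20490 to 21484 with control siRNA. Cdh15 (log2 10.79 to 10.98 against 11.45 to 11.46) and Vcam1 (10.46 to 10.68 against 10.89 to 11.02) lay below every control array. Myod1 (9.30 to 10.30 against 9.99 to 10.76) and Des (13.03 to 13.11 against 13.09 to 13.19) were lower at each time, with overlapping ranges. Myf5 (8.93 to 10.20 against 8.88 to 10.26) and Itga7 (12.09 to 12.27 against 12.23 to 12.26) overlapped with control. Of the 4 epithelial markers, Cdh1 and Cldn4 were higher as given above. The part of these shifts in the differences was not tested. In RNA from whole cultures, fewer cells of a kind and less RNA per cell cannot be told apart.

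Lsm1, the subunit that distinguishes the cytoplasmic Lsm1-7 ring from the nuclear Lsm2-8 ring, had log2 intensities of 8.32, 8.30 and 8.20 with control siRNA and 8.05, 8.07 and 8.06 with Mbnl1 siRNA. These groups did not overlap. The Cugbp1 arrays (8.21 to 8.22) lay above all Mbnl1 arrays, and below the control arrays at 0 and 2.5 h but not at 5 h. The fall with Mbnl1 siRNA was −0.22 ± 0.04 (limma adjusted p = 0.00192) and was called in all 14 alternatives that measured it. With Cugbp1 siRNA the difference from control was −0.06 ± 0.04 (adjusted p = 0.362). The Mbnl1 arrays were below the Cugbp1 arrays by −0.16 ± 0.04 (adjusted p = 0.00802).

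Edc3 moved in opposite directions under the knockdowns. At each time its Cugbp1 array was above and its Mbnl1 array below the control array, by 0.12, 0.18 and 0.17 and by −0.16, −0.07 and −0.21. The differences were 0.16 ± 0.04 with Cugbp1 siRNA (limma adjusted p = 0.0315) and −0.15 ± 0.04 with Mbnl1 siRNA (adjusted p = 0.0144). The first was not called without any single one of the 3 control or 3 Cugbp1 arrays (0.13 to 0.17, adjusted p from 0.0587 to 0.154), nor the second without the control array at 0 or 5 h (adjusted p = 0.0578 and 0.0613) or the Mbnl1 array at 5 h (0.0606). Neither was called with equal ribosomal protein medians (0.14, adjusted p = 0.163, and −0.15, adjusted p = 0.0556). The direct difference between Mbnl1 and Cugbp1 siRNA was −0.31 ± 0.04 (adjusted p = 0.000402) and was called in all 15 alternatives.

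Patl1, which links Ddx6 and the Lsm1-7 ring to Dcp2, was at 10.73, 10.70 and 10.64 with Mbnl1 siRNA and 10.62, 10.62 and 10.54 with control siRNA. The difference of 0.10 ± 0.04 was just past the threshold (limma adjusted p = 0.0439). It was called in 1 of the 9 analyses without 1 array, that without the Cugbp1 array at 5 h, and in the other 8 the adjusted p was 0.0502 to 0.152. With equal ribosomal protein medians it was not called either (0.10, adjusted p = 0.132).

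Set directly against Cugbp1 siRNA, Mbnl1 siRNA gave lower Xrn1, Edc3 and Lsm1, and no gene of the 9 was called higher. Of all tested genes 33.4% were lower and 23% higher in this contrast (56.4% in either direction). Dcp1a stood at 0.14 ± 0.06 (limma adjusted p = 0.0626) and Xrn2 at −0.10 ± 0.04 (adjusted p = 0.0587). Without the control array at 5 h both passed (adjusted p = 0.0387 and 0.0485). Xrn2 also passed with the 70th percentile filter (adjusted p = 0.0353) and with a trended robust prior (adjusted p = 0.0297). Dcp1a also passed without the Mbnl1 array at 0 h (0.21, adjusted p = 0.0133), with array weights (0.18, adjusted p = 0.0136) and with equal ribosomal protein medians (0.17, adjusted p = 0.0286).

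Dcp1b, the paralog of Dcp1a, was dim on all arrays. Its log2 intensity was 6.59, 6.61 and 6.69 with control siRNA, 6.66, 6.76 and 6.69 with Cugbp1 siRNA and 6.50, 6.75 and 6.69 with Mbnl1 siRNA. All of these were under the filter value of 7.38, the median of probe sets with 1 symbol. When no filter was applied, the 5 h change was 0.11 ± 0.06 (limma adjusted p = 0.166) and the differences from control 0.08 ± 0.06 and 0.02 ± 0.06 with Cugbp1 and Mbnl1 siRNA.

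The arms were then compared for their course over time, as the difference in log2 slope per hour from control. A negative value is a slope below that of control, which is a faster loss only where the control arm itself declined. None of the 9 genes was called with either siRNA, by limma with 2 residual degrees of freedom. Over all genes the calls were 0% for Cugbp1 and 0.0203% for Mbnl1 siRNA against control, and 0.943% between the siRNAs (0.0912% with a higher and 0.852% with a lower slope for Mbnl1 siRNA). At an unadjusted p under 0.05 there were 1129 of all genes and 0 of the 9 for Cugbp1 siRNA, 1361 and 2 for Mbnl1 siRNA, and 1609 and 0 between them. No alternative analysis called one of the 9 genes. Those with a straight line per siRNA or without the intensity filter called no gene at all, so they say nothing about the 9 in particular.

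For Mbnl1 siRNA those 2 genes were Dcp2 and Dcp1a. Dcp2 had a slope difference of −0.08 ± 0.03 per h (95% interval −0.16 to −0.01, limma adjusted p = 0.301). Its level relative to 0 h was 131% and 120% at 2.5 and 5 h with control siRNA and 93.5% and 89.5% with Mbnl1 siRNA, so that the arms were closest at 0 h. Dcp1a had a slope difference of 0.06 ± 0.02 per h (95% interval 0.01 to 0.11, adjusted p = 0.287). With Cugbp1 siRNA the interval was −0.02 to 0.07 for Dcp1a and −0.09 to 0.06 for Dcp2. Edc3, the other steeply declining gene, differed by 0.01 ± 0.02 per h with Cugbp1 siRNA (−0.04 to 0.06) and −0.01 ± 0.02 with Mbnl1 siRNA (−0.06 to 0.04). For Xrn1 the slope difference with Cugbp1 siRNA was 0.04 ± 0.02 per h (−0.01 to 0.09).

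**Figure D4:**
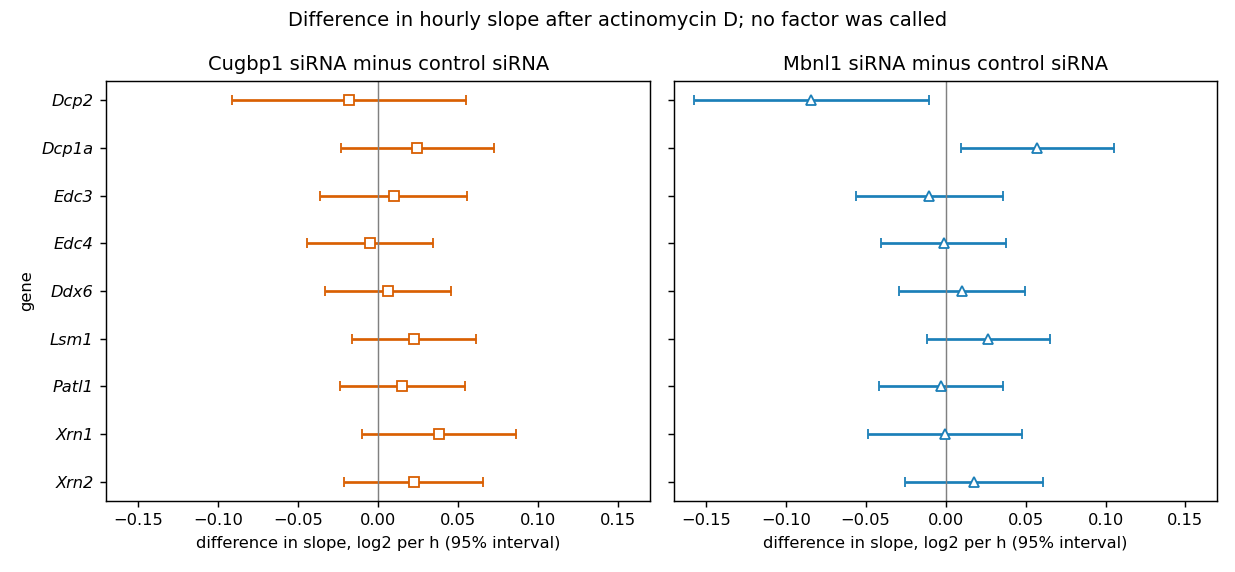
Difference in hourly log2 slope from control siRNA (x axis, with 95% intervals of the limma fit) for the 9 tested genes (y axis), Cugbp1 siRNA on the left and Mbnl1 siRNA on the right. Every interval on the left includes 0, and on the right those of Dcp2 (−0.16 to −0.01) and Dcp1a (0.01 to 0.11) do not, although no gene was called after adjustment.

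The tested genes whose log2 intensity was most like that of Xrn1 over the 9 arrays were Megf9 (Pearson r = 0.963), Naa35 (0.960) and Fndc3a (0.959). For Dcp2 they were Inhba (0.977), Ocel1 (0.964) and Etfrf1 (0.959). These coefficients describe arrays that share siRNA and time, and they carry no test.

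Other genes of mRNA decay were examined in 4 lists of 57 symbols, of which 51 were tested. They were decapping partners such as the Lsm2 to Lsm7 subunits, the exosome with its Ski cofactor, nonsense-mediated decay factors, and deadenylases. The deadenylase list held Parn and subunits of the Ccr4-Not and Pan2-Pan3 complexes, both catalytic and other subunits. At 5 h 16 of the 51 rose and 17 fell, near the 35.6% and 32.8% of all genes. Pnrc2, an adaptor of Dcp1a, fell by 1.05 on the log2 scale, Cnot2, a Ccr4-Not subunit, by 0.79 and the exosome gene Exosc4 by 0.70. Smg8, a regulator of the Smg1 kinase, had a fitted change of −1.46, but it passed the filter through its 0 h arrays (mean 8.45). It averaged 7.29 and 6.99 at 2.5 and 5 h, under the filter value, so the size of its fall is uncertain. Exosc3, with a mean just 0.05 above the filter value, was also above it at 0 h (7.62 to 7.93) and below it at 5 h (6.95 to 7.34). The counts of falls at 5 h take in such genes and carry the same limit. Lsm7 (0.40), the Ski helicase Skiv2l (0.31), the deadenylase Parn (0.26) and Smg5 (0.21) rose, but with equal ribosomal protein medians Smg5 stood at −0.02, Skiv2l at 0.07 and Parn at 0.02, and none of these 3 was called. On that scale 1 of the 51 was called higher and 35 lower, beside 2.85% and 59.4% of all genes.

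With Cugbp1 siRNA 8 of the 51 were higher and 1 lower, beside 10.5% and 8.67% of all genes. The list medians were 0.01, 0.07, −0.04 and 0.03 in the order above. With equal ribosomal protein medians 1 decapping partner was higher and 1 deadenylase lower, beside 5.29% and 7.22% of all genes. Lsm7 (0.33 ± 0.04, limma adjusted p = 0.00149), Smg8 (0.24 ± 0.06), Exosc5 (0.23 ± 0.05) and, on the lower side, the deadenylase Pan2 (−0.25 ± 0.06) differed most within their lists. With equal ribosomal protein medians Smg8 and Exosc5 were not called (adjusted p = 0.0561 and 0.0613). Exosc5 was also lost without the control array or the Cugbp1 array at 2.5 or 5 h (0.16 to 0.23, adjusted p from 0.0697 to 0.104), and Smg8 without the control array at 2.5 h or any Cugbp1 array (0.18 to 0.25, adjusted p from 0.0587 to 0.0936). Pan2 was not called without any single control or Cugbp1 array (−0.17 to −0.30, adjusted p from 0.0553 to 0.126).

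With Mbnl1 siRNA 29 of the 51 fell and 6 rose, beside 31% and 24% of all genes. By list, 8 of 15 decapping partners fell and 2 rose, and 8 of 16 exosome and Ski genes fell and 2 rose. Of 7 nonsense-mediated decay factors 5 fell and 1 rose, and of 13 genes in the deadenylase list 8 fell and 1 rose. The list medians were −0.16, −0.13, −0.20 and −0.16, against −0.02 for all genes and for the decapping and exonuclease set itself. With equal ribosomal protein medians 8, 6, 4 and 8 fell and 1, 1, 1 and 0 rose, beside 27.6% and 21.6% of all genes. Exosc5, an exosome ring subunit, was lowest at −0.74 ± 0.05 (limma adjusted p = 1.96e-05), followed within the other lists by Smg5 (−0.39 ± 0.05), Eif4enif1, which binds eIF4E and Ddx6 (−0.32 ± 0.05), and Cnot2 (−0.30 ± 0.05). Pnrc1 (0.22 ± 0.08), Smg8 (0.22 ± 0.06), Wdr61 (0.15 ± 0.04) and the catalytic Ccr4-Not subunit Cnot6 (0.11 ± 0.04) rose.

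Among these rises, Smg8 was not called without the control array at 2.5 h (0.15, adjusted p = 0.0546). Smg8 was also under the filter value of 7.38 in every array at 5 h (6.88 to 7.09). Its differences with either siRNA thus rest partly on dim values. Of the 9 analyses that left out 1 array, Pnrc1 was called in those without the Cugbp1 array at 0 h or the Mbnl1 array at 2.5 or 5 h, and in the other 6 it was at 0.11 to 0.27 (adjusted p from 0.0523 to 0.175). Cnot6 was called in those without the Cugbp1 array at 0 or 5 h, and in the other 7 it was at 0.09 to 0.13 (adjusted p from 0.0604 to 0.148). Neither was called with equal ribosomal protein medians (adjusted p = 0.0548 and 0.104).

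Between Mbnl1 and Cugbp1 siRNA 31 of the 51 were lower with Mbnl1 siRNA and 2 higher, beside 33.4% and 23% of all genes. On the ribosomal protein scale 23 were lower and 2 higher, beside 26.5% and 22.8%. Exosc5 (−0.97 ± 0.05), Lsm5 (−0.44 ± 0.08), the deadenylase Parn (−0.41 ± 0.05) and Smg6, the endonuclease of nonsense-mediated decay (−0.29 ± 0.06), had the largest differences in their lists. Lsm5, read by the brightest of 3 probe sets, was near the filter value with Mbnl1 siRNA (7.28 to 7.45). With Cugbp1 siRNA it was 7.66 and 7.72 at 0 and 2.5 h but 8.125 at 5 h. It was called in all 13 alternatives that measured it. The 2 higher genes were Pnrc1 (0.23 ± 0.08) and Wdr61 (0.13 ± 0.04). Pnrc1 was not called without the Mbnl1 array at 0 h or any Cugbp1 array (0.11 to 0.26, adjusted p from 0.068 to 0.115), and Wdr61 was not called without the arrays of either siRNA at 2.5 or 5 h (0.10 to 0.13, adjusted p from 0.0679 to 0.0782).

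**Figure D5:**
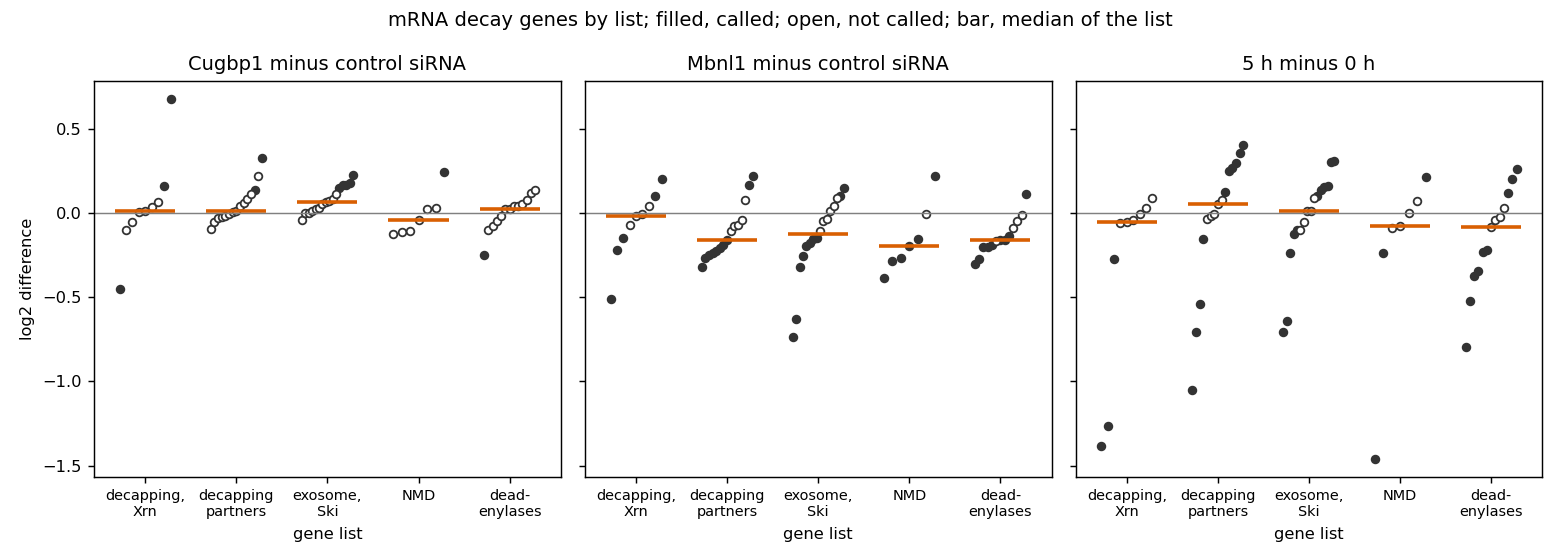
Log2 difference (y axis) of every tested gene of the decapping and exonuclease set and of the 4 related lists (x axis; NMD, nonsense-mediated decay), filled where called and open where not, with the list median as a bar. With Mbnl1 siRNA the medians of the 4 related lists lie between −0.20 and −0.13 and that of the decapping and exonuclease set at −0.02, whereas at 5 h Dcp1a, Edc3, Pnrc2 and Smg8 lie at or below −1.05 on the deposited scale.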

How the data were processed

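Per the submitters' processing notes, RMA and Affymetrix Expression Console produced the array intensity values (versions: not given in the sources used here). Per the labels, the input was 100 ng total RNA. The deposited intensity values are on the linear scale, as read from the values, and log2 was taken here. Of 35556 probe sets, 21789 had 1 gene symbol, 1621 several and 12146 none; symbols were updated by gene ID through RefSeq for 21698. Probe sets with 1 symbol and a mean log2 of at least 7.38 (the 50th percentile) were kept, with the brightest taken per gene.

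Limma 3.58.1 in R 4.3.3 (lmFit, eBayes) was fitted to siRNA and time as factors (4 residual degrees of freedom), and for decay with an added slope in hours per siRNA (2 residual degrees of freedom). Both models were run on simulated data with independent noise in each array, which do not represent variation between cultures. RMA equalises arrays, so a global loss of mRNA is not seen. The members and lists were chosen with earlier results of these data known. Named were all 10 members, the siRNA targets, the 3 genes most like Xrn1 and Dcp2, and the largest called rise and fall of each related list. Alternatives were equal ribosomal protein medians, other filters, the mean of all probe sets, a trended robust prior, array weights, a straight line per siRNA and leaving out each array. Median array intensity was 105 to 113.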

Additional observations from a re-analysis of the deposited data

Results flagged for a closer look

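The effects of the siRNAs on level, each relative to the same 3 control arrays, differed between the knockdowns for 3 of the 9 tested genes, by the limma contrast of Mbnl1 with Cugbp1 siRNA. Over all tested genes 56.4% were called in this contrast, so the set did not stand out by its count. The difference was −0.47 for Xrn1 (adjusted p = 0.000143), −0.31 for Edc3 (adjusted p = 0.000402) and −0.16 for Lsm1 (adjusted p = 0.00802). For Xrn1 both knockdowns were above control, for Edc3 they lay on opposite sides of it, and for Lsm1 only the fall with Mbnl1 siRNA passed the test. Against control, the calls of Edc3 with either siRNA and of Xrn1 with Mbnl1 siRNA were lost without certain single arrays, as given above.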

How the results depend on the processing

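Of 1179 values of the 9 genes under alternatives, 38 lost a call, 19 gained one in the same direction and 1 (Ddx6 at 5 h) turned and was called. Another 75 values, called neither as reported nor under the alternative, changed sign. No paired analysis was possible because the labels give no replicate numbers to block on, although the model compares siRNAs within each time. The cause of the changes below was not tested.

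With equal ribosomal protein medians the genes of the set called were 3 for Mbnl1 siRNA, 8 at 5 h and 7 from 2.5 to 5 h. Ddx6 turned to −0.21 and Smg5 to −0.0227 at 5 h. Calls over all genes were then 1234 for Cugbp1 siRNA (1894 as reported), 3945 from 2.5 to 5 h (2113), and for the slopes 295 with Mbnl1 siRNA (2) and 355 between siRNAs (93). For Mbnl1 siRNA 2129 of all genes were then called higher and 2723 lower, and at 5 h 281 higher and 5855 lower.

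Without the intensity filter the calls over all genes were 969 for Cugbp1 siRNA, 1141 from 2.5 to 5 h, and 0 for both Mbnl1 slope contrasts. The 70th percentile filter tested 5889 genes and 5 of the set (Xrn2, Edc3, Edc4, Ddx6 and Patl1), of which 1 was called for Cugbp1 and 2 for Mbnl1 siRNA. Of the 5889 genes 875 were called higher and 743 lower for Cugbp1 siRNA, and 1632 higher and 2140 lower for Mbnl1 siRNA. This filter also gave 3091 calls over all genes at 2.5 h, 4240 at 5 h, and 111 and 200 for the Mbnl1 slope contrasts. The mean of all probe sets gave 20 slope calls with Mbnl1 siRNA. A trended robust prior gave 4, 198 and 322 slope calls (Cugbp1, Mbnl1, and between them), a straight line per siRNA 0 and 0 for the Mbnl1 contrasts, and array weights 3522 calls for Cugbp1 siRNA.

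Leaving out each array in turn gave 1 to 3 called genes of the set for Cugbp1 siRNA, 3 to 5 for Mbnl1 siRNA, 3 to 5 between siRNAs, 2 to 3 at 2.5 h, 3 to 4 at 5 h, 2 to 3 from 2.5 to 5 h and 0 for each slope. Over all 9864 genes the range was 742 to 2027 for Cugbp1 siRNA (742 without the control array at 2.5 h). It was 4455 to 5480 for Mbnl1 siRNA and 4574 to 5472 between siRNAs. At 2.5 h it was 3128 to 4856 and at 5 h 6015 to 6597. From 2.5 to 5 h it was 1019 to 2328 (1019 without the Mbnl1 array at 2.5 h). For the slopes it was 0 to 203 with Mbnl1 siRNA and 0 to 474 between siRNAs. With 9 arrays, small differences have wide intervals, and a dim gene such as Dcp1b cannot be judged.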
